A study of Homo sapiens with 9 samples.

Results

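Large domains are stretches of 1.0 to 3.0 Mb between adjacent borders of the Hi-C map, and 483 of the 4975 stretches between borders on chromosomes 1 to 22 were taken as members. They were chosen by the insulation of the growing libraries alone. At each position of the map, in bins of 40 kb, the mean balanced contact between the 13 bins on either side was taken as log2 and set against the chromosome's median. A local minimum of the mean of the 3 growing libraries with a prominence of at least 0.1 was a border. Of the 508 stretches with the required length, 483 had values in at least 90% of their bins. Their median length was 1200 kb, and together they covered 644 Mb, or 26.1% of the length of the 4581 domains tested. The RIS libraries did not enter the rule, which was chosen with earlier results of these data known. The depth of a member's borders in growing cells is partly set by the rule.

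Hi-C counts ligated pairs of DNA fragments from nearby positions in the nucleus. IMR90 cells, human lung fibroblasts grown at passage 20-25, carried ER:HRAS(G12V), oncogenic HRAS fused to the oestrogen receptor, in every library. The 3 growing libraries had received no tamoxifen, and growing replicate 3 was labelled with MSCV Vector besides. The 2 libraries of RAS-induced senescence (RIS) came from cells given 100 nM 4OHT for 6 days, so the construct is shared by both conditions and the drug is not. The recovered contacts numbered 154318992, 175410468 and 180775315 in the growing and 109967509 and 150689993 in the RIS libraries. The methods speak of biological replicates, whereas the labels do not tie the libraries to separate cultures, so p-values measure the spread between these libraries, which may be partly technical. Contacts hold no expression, and the cell type could not be checked against marker genes.

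Chromosomes fold into self-interacting domains, and cohesin, which extrudes loops of DNA, stops preferentially at sites bound by CTCF. Domains sort into an A compartment, gene-rich and transcribed, and a B compartment of heterochromatin, much of it attached to the nuclear lamina. Fibroblasts with active RAS are known to detach heterochromatin from the lamina and to gather it into senescence-associated foci inside the nucleus.

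The members with the largest fall and the largest rise in RIS differed in base composition. For the rise, the 200 bases nearest the centre whose GC content was within 0.5 percentage points of the whole domain are shown as an example of that composition (GRCh37, + strand). The domain that fell, on chromosome 7 from 85480001 to 86520000, held 35.5% GC. The domain that rose, on chromosome 16 from 12920001 to 14000000, held 42.2%.
Rise, chr16:13461101-13461300: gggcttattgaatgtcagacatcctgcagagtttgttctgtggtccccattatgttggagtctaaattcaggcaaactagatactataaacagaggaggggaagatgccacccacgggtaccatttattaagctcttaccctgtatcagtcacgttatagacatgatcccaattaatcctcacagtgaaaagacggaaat

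The borders of the members carried more matches to the CTCF consensus, a core of 13 letters searched on both strands of GRCh37, than their interiors. A match lay in 15.3% of the 1710 bins beside a border and in 4.53% of the 15142 other bins inside the members, against 9.32% of all 67115 bins with known bases. Beside the borders of domains under 400 kb the share was 20.9%. Of 78 matches in the first bin of a member 58 were on the + strand, and of 79 in the last bin 58 were on the - strand, so most pointed into the domain. In domains under 400 kb 66.2% and 69.7% did so, against 74.4% and 73.4% here, and 10.01% of their other bins held a match. The rule used contacts and no sequence. The last bin of the domain of SEMA3A and SEMA3D, secreted semaphorins, also held a match on the + strand, which points outwards and is not shown. As examples, pairs of matches that point at each other across a whole member are shown for this domain and for that of EMX2, a homeobox factor. The core is in capitals and each sequence is on the strand of the core.
EMX2 domain, first bin, + strand, core at chr10:119179645-119179657: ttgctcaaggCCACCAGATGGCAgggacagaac
EMX2 domain, last bin, - strand, core at chr10:120219291-120219303: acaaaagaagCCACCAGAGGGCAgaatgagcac
SEMA3A domain, first bin, + strand, core at chr7:83563645-83563657: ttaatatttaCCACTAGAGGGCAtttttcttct
SEMA3A domain, last bin, - strand, core at chr7:84652581-84652593: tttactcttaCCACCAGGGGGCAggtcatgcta

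Most large domains lay in the B compartment and held few genes. The compartment was read from the first component of the contact map in bins of 120 kb, with positive scores for A, and the mean score of the growing libraries placed 404 members in B and 79 in A. That made 83.6% of the members B, against 25.9% of the domains under 400 kb. Members held 1.47 protein-coding gene starts per Mb and a median GC content of 37.4%, whereas the short domains held 13.6 per Mb and 43.2%. No protein-coding gene started in 129 of the 483 members, and 949 of 19229 protein-coding genes, or 4.94%, started in a member. Chromosome 13 had the largest share of its tested length in members, at 34.3%, and chromosome 19 the smallest, at 3.21%. Between growing and RIS cells 10 members went from a B to an A score and 5 from A to B.

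Internal contact was the average observed/expected contact over all pairs of different bins of a domain, taken as log2, where the expected value is the mean of the same chromosome and library at the same distance. Of the 483 members, 308 passed the test of RIS against growing (limma, Benjamini-Hochberg at 5% over all 4581 domains), and 129 of these rose while 179 fell. Among all domains tested 51.8% passed, 38.4% as higher and 13.4% as lower, so that members were called lower 179 times in 483, or 37.1%, and higher in 26.7%. The change ranged from -0.47 to 0.35 (log2), and its median was -0.02 over the members and 0.05 over all domains. The median over the members was -0.00026 without RIS replicate 1 and -0.035 without RIS replicate 2. It was -0.079 when centred on each library's median and -0.073 with the sum of observed over the sum of expected contacts. The RIS libraries did not overlap the growing ones in 378 members, or 78.3%, against 69.4% of all domains. The split depended on the scale and on the borders. With a prominence of 0.2, which gave 603 members, 203 were higher and 172 lower, with a median change of 0.02, so rises then outnumbered falls. Centred on each library's median 55 of 301 called members were higher, and with the sum of observed over the sum of expected contacts 82 of 351.

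Long domains hold pairs at distances that short ones lack, so the comparison was repeated over pairs 40 to 320 kb apart. Of the 483 members 94 then rose and 240 fell, while 52.5% of all domains were called, 36.8% as higher and 15.7% as lower. Over these pairs the median of the large minus that of the short domains was -0.68, -0.72 and -0.67 (log2) in the growing libraries (replicates 1, 2 and 3) and -0.80 and -0.81 in the RIS libraries. It fell by 0.11 (exact permutation test over libraries, two-sided, p = 0.1, the smallest that 3 against 2 allows), by 0.09 among the libraries with few duplicate reads and by 0.14 between those with many. Within A domains the same difference moved by -0.01 and within B domains by -0.16. The range of distances was shared, but distances within it were not matched. Domains under 400 kb had a median length of 240 kb, so their pairs lay towards the short end of the range. Large and short B domains also differed in GC content, and values by GC content are given below.

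In all, 13 single values were tested over libraries in this way, of which 9 reached 0.1 before and 0.144 after Benjamini-Hochberg adjustment, so no exact permutation test over these libraries can pass 0.05. The number of duplicate reads separates growing replicate 3 and RIS replicate 2 from the other libraries, and differences within these classes are given beside the main results. The share of dangling ends separates the conditions themselves, and its part cannot be told apart from that of RIS.

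**Figure D1:**
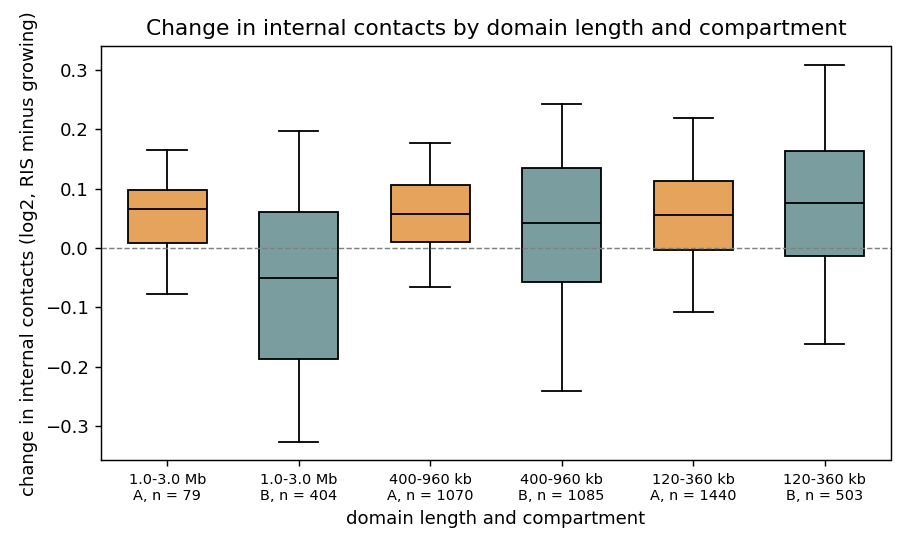
Change in internal contacts (log2, RIS minus growing) of domains by length and compartment, with the median as a line, the middle 50% of domains as a box and the 5th to 95th percentile as whiskers. Large B domains have a median of -0.05, below that of the other 5 groups, and the widest box.

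Members of the A and B compartments moved apart. In A, 37 of 79 members (46.8%) rose and 4 (5.06%) fell, with a median change of 0.07, and in B 92 of 404 (22.8%) rose and 175 (43.3%) fell, with a median of -0.05. A domains of 400-960 kb had nearly the same shares as the large ones, with 46.6% higher and 5.05% lower, whereas in B domains of that length 42.9% were higher and 22.9% lower. Centred on each library's median, 9 A members were called higher and 17 lower, while in B 46 were higher and 229 lower. With the sum of observed over the sum of expected contacts 19 A members were higher and 13 lower, so the direction in A depended on the scale. The median internal contact of the A members was 0.70, 0.71 and 0.73 (log2 observed/expected) in the growing libraries (replicates 1, 2 and 3) and 0.79 and 0.78 in the RIS libraries (replicates 1 and 2). That of the B members was 0.46, 0.43 and 0.43 in the growing and 0.36 and 0.42 in the RIS libraries. B minus A fell by 0.12 (exact permutation test, p = 0.1), by 0.16 among the libraries with few duplicates and by 0.07 between those with many. The B members of RIS replicate 2 lay only just below the growing libraries.
The 4 members of A that fell, named after their values were seen, were those of DUSP10, a phosphatase of MAP kinases (-0.20), of SEMA3A and SEMA3D (-0.08), of NRG1, a ligand of ERBB receptors (-0.31), and a stretch of chromosome 13 from 65040001 with no protein-coding gene (-0.10). The calls for SEMA3A and for chromosome 13 were lost without growing replicate 1 or without RIS replicate 1, and that for SEMA3A without growing replicate 2 too.

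Within B, the direction followed base composition. Across the 404 B members the change had a Pearson's r of 0.72 and a Spearman's rho of 0.76 with GC content, against an r of 0.42 and a rho of 0.48 with the A/B score of growing cells, 0.12 and 0.34 with genes per Mb, and -0.15 and -0.15 with length. Of the 118 B members with no protein-coding gene start 11 rose and 75 fell, and of the 34 with 5 or more starts 11 rose and 8 fell. These are descriptions across domains of the same 5 libraries, in which GC content also bears on sequencing. In the 79 A members the r with GC content was 0.17.

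**Figure D2:**
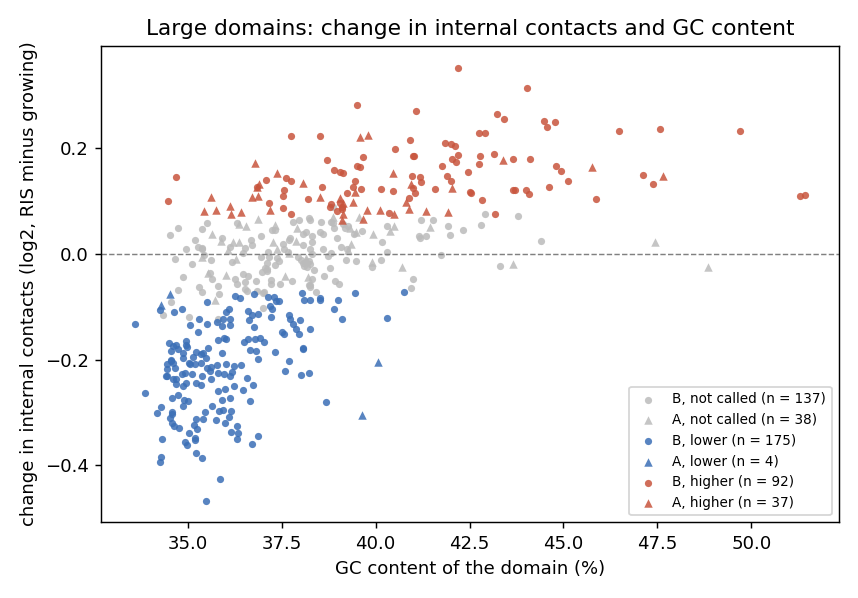
Change in internal contacts (log2, RIS minus growing, vertical) against GC content (percent, horizontal) for the 483 large domains, with circles for B, triangles for A and colours for the limma call. B members with 36% GC or less lie mostly below 0 and those above 40% mostly above 0.

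The B members were split by GC content into 3 groups of 134 or 135, a grouping made after the values were seen and given with no test. In the low-GC group, from 33.6% to 36.1%, 2 domains rose and 106 of 135 fell. In the middle group, from 36.1% to 38.3%, 11 rose and 60 of 134 fell. In the high-GC group, up to 51.4%, 79 of 135 rose and 9 fell. Centred on each library's median, 0 low-GC members were called higher and 120 lower, 3 middle-GC members higher and 89 lower, and 43 high-GC members higher and 20 lower. Median internal contact in the low-GC group was 0.34, 0.31 and 0.29 (log2 observed/expected) in the growing and 0.07 and 0.18 in the RIS libraries. In the high-GC group it was 0.53, 0.51 and 0.50 in the growing and 0.64 and 0.66 in the RIS libraries. In both groups every RIS library lay outside the range of the growing ones, below it in the first and above it in the second.
The 2 low-GC members that rose, named after their values were seen, were those of PCLO, a scaffold protein of the presynaptic zone, and SEMA3E (0.15) and of LRFN5, a synaptic adhesion protein (0.10). Over pairs 40 to 320 kb apart both had the other sign, at -0.22 and -0.11, and the call for LRFN5 was lost without growing replicate 2 or 3 and without either RIS library.

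The groups also differed in gene content and in coverage. In the low-GC group 64 of 135 members held no protein-coding gene start and the density was 0.865 per Mb, while in the high-GC group 20 of 135 held none and the density was 1.81 per Mb. Coverage before balancing, the log2 of the contacts per bin over the chromosome's median bin, was 0.09, 0.11 and 0.15 in the growing and -0.01 and 0.05 in the RIS libraries for the low-GC group, a difference of -0.10. In the high-GC group the conditions overlapped. In contacts before balancing 98 low-GC members fell and 1 rose, while 57 high-GC members rose and 4 fell. The part of coverage and of sequencing bias by GC content in these changes was not tested.

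Short B domains of the same GC content moved in the same directions. Of 16 short B domains in the low-GC range 1 rose and 8 fell, of 92 in the middle range 9 rose and 32 fell, and of 395 in the high range 203 rose and 17 fell. Over pairs 40 to 320 kb apart the low-GC members fell by 0.28 (log2) and the short domains of that range by 0.15. These short domains had values of 0.12, 0.04 and 0.05 in growing replicates 1, 2 and 3, of -0.15 in RIS replicate 1 and of -0.0050 in RIS replicate 2, so the size of their fall rested largely on RIS replicate 1. In the middle range members fell by 0.16 and short domains by 0.05, the latter from 0.23, 0.22 and 0.26 to 0.16 in RIS replicate 1 and 0.22 in RIS replicate 2, which lay next to the growing libraries. In the high range members gained 0.07 and short domains 0.10.

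The loss of contact in the low-GC members reached all distances inside the domain, and the gain in the high-GC members was larger at long than at short distances. At 40-200 kb the low-GC members went from -0.36, -0.41 and -0.36 (log2 observed/expected) in the growing to -0.65 and -0.64 in the RIS libraries. At 840 kb or more they went from 1.07, 0.99 and 0.96 to 0.77 and 0.90. The high-GC members changed by 0.04 at 40-200 kb and by 0.16 at 840 kb or more, with no overlap between conditions. Over all members together these changes cancelled in part, with -0.06 at 40-200 kb (exact permutation test, p = 0.2), -0.04 at 240-400 kb (p = 0.1, exact), and overlapping libraries from 440 kb upwards, where the change was -0.01 at 440-800 kb (p = 0.6, exact) and -0.02 at 840 kb or more (p = 0.7, exact). At 840 kb or more it was -0.08 among the libraries with few duplicates and 0.06 between those with many, and at 440-800 kb -0.03 and 0.03.

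**Figure D3:**
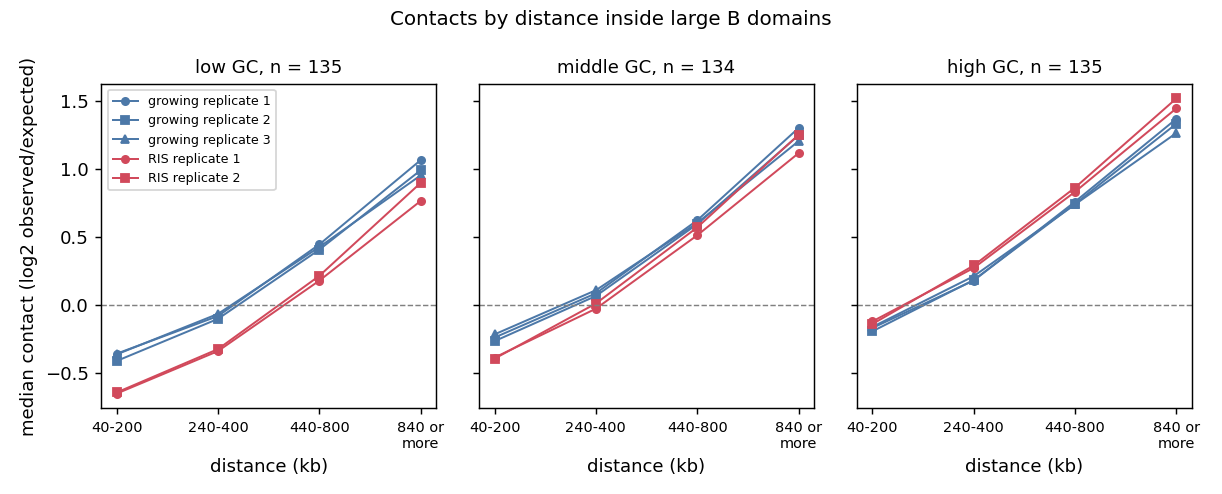
Median contact (log2 observed/expected, vertical) by distance in kb (horizontal) inside large B domains of low, middle and high GC content, 1 line per library. In the low-GC panel both RIS lines run below the 3 growing lines at every distance, and for high GC they run over them.

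Domains are named by the protein-coding genes that overlap them, which can extend beyond the borders. The domains with the largest rises were B domains in growing cells, of 39.5% to 44.04% GC. The largest was the domain of SHISA9, an auxiliary subunit of AMPA-type glutamate receptors, on chromosome 16 from 12920001 to 14000000 (hg19). Its internal contact was 0.40, 0.39 and 0.40 (log2 observed/expected) in the growing libraries (replicates 1, 2 and 3) and 0.71 and 0.79 in the RIS libraries. The rise was 0.35 ± 0.0278 (log2, SE; limma adjusted p = 1.1e-05), and it grew from 0.14 at 40-200 kb to 0.54 at 840 kb or more.
A domain of chromosome 12 from 128560001 to 130440000, which overlaps TMEM132C, SLC15A4, GLT1D1 and TMEM132D, rose by 0.31. TOX3, a transcription factor of the HMG-box family, lay in a domain of chromosome 16 from 52040001 to 53040000 that rose by 0.28.
Rises of 0.26 were also found for the domain of SRRM4, a regulator of neuronal splicing, HSPB8, CCDC60 and TMEM233 on chromosome 12 from 118880001 to 120080000 and that of PANK3, a kinase of coenzyme A synthesis, and SLIT3, a secreted ligand of ROBO receptors, on chromosome 5 from 168000001 to 169000000. From growing to RIS cells the mean A/B score went from -1.30 to -0.71 for SRRM4 and from -0.49 to -0.08 for SLIT3. For TMEM132C it went from -1.24 to -0.80. It moved less for SHISA9 (-1.65 to -1.58) and TOX3 (-1.56 to -1.64).

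The largest falls were in B domains of 34.3% to 35.9% GC with 0 to 2 protein-coding gene starts each. The domain of GRM3, a metabotropic glutamate receptor, and ELAPOR2 on chromosome 7 from 85480001 to 86520000 had values of 0.25, 0.19 and 0.22 (log2 observed/expected) in the growing and -0.31 and -0.19 in the RIS libraries. It fell by 0.47 ± 0.035 (SE; limma adjusted p = 1.03e-05), with no overlap between conditions, and its contacts with the flanking stretches fell by 0.61.
The domain of PCDH20, a protocadherin of cell adhesion, on chromosome 13 from 61160001 to 62640000 went from 0.11, 0.04 and 0.04 in the growing to -0.42 and -0.31 in the RIS libraries. The domain of NDST4, an enzyme of heparan sulphate synthesis, on chromosome 4 from 115680001 to 116880000 fell by 0.39. That of PPFIA2, a scaffold of synaptic vesicle release, and CCDC59 on chromosome 12 from 81720001 to 82720000 also fell by 0.39.
A domain of chromosome 13 from 67800001 to 70080000 fell by 0.38. It holds only the start of PCDH9, a protocadherin, whose gene runs from 66876966 to 67804577 on the - strand and so lies almost wholly outside. A stretch of chromosome 5 from 18400001 to 19440000 with no protein-coding gene fell by 0.38 as well.

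The 3 longest members did not rise. A stretch of chromosome 2 from 193160001 to 196160000 with no protein-coding gene changed by -0.11 (limma adjusted p = 0.08), from 1.23, 1.20 and 1.15 in the growing to 1.03 and 1.12 in the RIS libraries, which is not past the threshold. The domain of COBL, an actin nucleator, and POM121L12 on chromosome 7 from 51280001 to 54280000 fell by 0.23. The domain of UNC5C, a netrin receptor, PDHA2 and STPG2 on chromosome 4 from 96080001 to 99000000 fell by 0.16.
At the lower limit of length, 57 members of 1000 kb had a median change of 0.02 and 62 domains of 960 kb, just outside, 0.07. In genome order the first 2 of each were the members from 54520001 and 71520001 of chromosome 1, at -0.02 and 0.03, and the domains from 6760001 and 36920001 of chromosome 1, at 0.09 and 0.32.

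Of a list of 44 genes for neural cell adhesion 17 started in 17 members, all in B, of which 9 fell, 2 rose and 6 were not called, with a median change of -0.09. Over all B members 43.3% fell and 22.8% rose, with a median of -0.05, so the count of falls was near that of B members at large. Genes were assigned by their start, and those of PCDH9, PCDH15, ROBO1, CTNNA2, CNTNAP2 and NRXN3 have most of their length outside the member. ROBO1, a receptor of SLIT ligands, runs from 78646389 to 79817148 of chromosome 3 on the - strand and started in a domain from 79600001 to 81400000 with values of 0.40, 0.31 and 0.32 (log2 observed/expected) in the growing and -0.07 and 0.04 in the RIS libraries. The domain fell by 0.36 ± 0.0419 (SE; limma adjusted p = 5.53e-05).
The domain of PCDH10, a protocadherin, on chromosome 4 from 134000001 to 135200000 fell from 0.23, 0.23 and 0.19 to -0.11 and -0.05. The domains of PCDH9 (-0.38), PCDH17 (-0.24), PCDH15 (-0.18), CDH12 (-0.23) and CDH10 (-0.17), all of the cadherin superfamily, fell too, as did those of FSTL5 (-0.11) and of CTNNA2, an alpha-catenin of neurons (-0.09). The domains of the presynaptic adhesion protein NRXN3 (0.17) and of CNTN3, a contactin (0.14), rose. Of the 27 other genes of the list in shorter domains or in none that was tested, 4 lay in domains called higher and 14 in domains called lower. Of all domains of 400-960 kb, which held 20 of the 27, 44.8% were called higher and 14.01% lower. Of the B domains of that length 42.9% were higher and 22.9% lower. The shorter domains of this list were not split by compartment.

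Of a list of 53 genes for developmental transcription factors 20 started in 18 members, of which 10 rose, 1 fell and 7 were not called. The median change was 0.09, against -0.02 over all members, of which 26.7% rose and 37.1% fell. In B lay 17 of the 20 genes. Of all B members 22.8% rose and 43.3% fell, and of those in the high-GC group 58.5% rose and 6.67% fell. The list was not compared with members of like GC content. Of the 33 other genes of the list 15 lay in shorter domains called higher and 8 in shorter domains called lower. Domains of 400-960 kb held 29 of the 33, and of all such domains 44.8% were higher and 14.01% lower. Of those in B 42.9% were higher and 22.9% lower. The domain of TBX3, a T-box factor of limb and heart, on chromosome 12 from 115080001 to 116400000 had values of 0.70, 0.71 and 0.73 (log2 observed/expected) in the growing and of 0.89 in both RIS libraries, a rise of 0.18 ± 0.0265 (SE; limma adjusted p = 0.000274).
The domain of BCL11B, a zinc finger factor of T cells and neurons, on chromosome 14 from 97400001 to 99840000 rose from 1.08, 1.06 and 0.98 to 1.20 and 1.26. IRX1 and IRX2 shared a domain of chromosome 5 that rose by 0.16, and IRX3 and IRX5 a domain of chromosome 16 that rose by 0.12, all of the Iroquois homeobox family.
Other rises were those of EBF3 (0.14), ZFHX3 (0.12), NFIA (0.12), OTX2, a homeobox factor of the forebrain (0.12), SALL3 (0.10) and NR2F2, an orphan nuclear receptor (0.08). Over pairs 40 to 320 kb apart the domains of NFIA, OTX2 and NR2F2 did not keep the sign, at -0.04, -0.01 and -0.01. The domain of BCL11A, a zinc finger repressor of foetal globin, fell by 0.12.

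Of all protein-coding genes 4.94% started in a member, and the counts of the other lists were near that share. None of 19 genes of the senescence secretory phenotype and none of 23 genes of the fibroblast matrix started in a member. Of 22 cell cycle genes only AURKA, a mitotic kinase, did, in a domain of chromosome 20 from 54920001 to 55920000 that rose by 0.13. Of 22 ribosomal protein genes 1 did, RPL15, and its domain was not called (0.04). All 6 lists and their members' values describe these libraries, and no test was made over a list.

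Large domains lost contact with their surroundings. Contact between a member and the stretches of its own length on either side, over distances shorter than the member, was -0.14, -0.13 and -0.13 (log2 observed/expected, median over members) in the growing libraries (replicates 1, 2 and 3) and -0.25 and -0.22 in the RIS libraries. The difference was -0.10 (exact permutation test, p = 0.1), -0.12 among the libraries with few duplicates and -0.09 between those with many. The loss lay in B, where it was -0.14, while the A members gained 0.09. In domains under 400 kb the libraries of the conditions overlapped, with a difference of -0.01.
Low-GC members lost most, from 0.16, 0.11 and 0.09 in the growing to -0.13 and -0.07 in the RIS libraries.

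**Figure D4:**
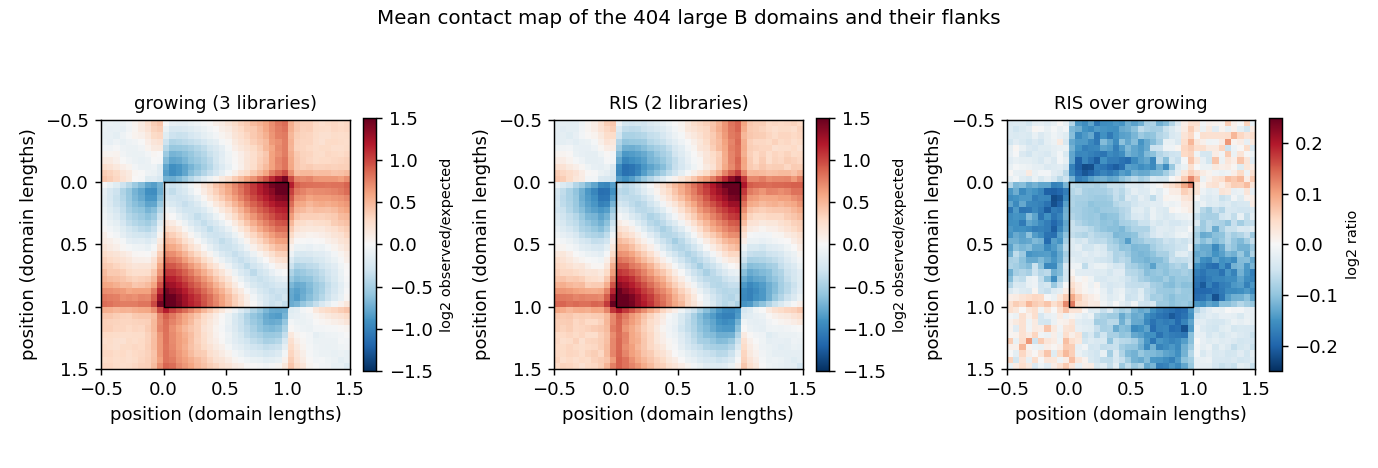
Mean contact map of the 404 large B domains (square) and flanks of 0.5 domain lengths, with both axes in domain lengths and colours for log2 observed/expected in growing and RIS cells and for the log2 ratio of RIS over growing. The ratio is lowest in the blocks across both borders, where the mean change up to 0.5 lengths apart is -0.16 on the left and -0.15 on the right.

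The borders of the members were slightly deeper in RIS. Border depth, the insulation at a border less the median inside the domain, had a median of -0.74, -0.75 and -0.73 (log2) in the growing and -0.80 and -0.81 in the RIS libraries, a difference of -0.06 (exact permutation test, p = 0.1). It was -0.05 among the libraries with few duplicates and -0.08 between those with many. In B the difference was -0.06 and in A 0.02, and for domains under 400 kb it was -0.05. With the borders taken from a single growing library, left out of the comparison, it lay between -0.07 and -0.05. The corner is the contact between the first 3 and the last 3 bins of a member. It exceeded internal pairs in the same range of distances by 0.05 in the growing and by 0.06 in the RIS libraries (exact permutation test, p = 0.2). Most of those pairs were the corner's own, so the excess is small by construction and its size cannot be read. Observed/expected contact of the corner was 1.54, 1.48 and 1.46 (log2) in the growing and 1.53 and 1.58 in the RIS libraries.

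Most of these borders were found again in RIS cells, where more members were divided. Of 855 borders of members 87.8% had a border of the mean RIS map within 1 bin. With the members set by a single growing library, 83.6% to 87.9% of their borders were found in another growing library and 81.1% to 85.3% in a RIS library. Another growing library placed a border inside 22.1% to 29.0% of these members, and a RIS library inside 37.8% to 45.8%. In domains under 400 kb the shares with an inner border were 1.76% to 3.53% and 5.40% to 7.52%. The RIS libraries had more borders in all, 5367 and 5622 against 5013 to 5148 in the growing libraries, and the part of their depth in this count was not tested.

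Large B domains gained contacts with each other over long distances. For 4526 pairs of B members on the same chromosome more than 2 Mb apart, mean contact was 1.904, 1.96 and 1.88 (observed/expected) in the growing libraries (replicates 1, 2 and 3) and 2.45 and 2.58 in the RIS libraries. The difference was 0.40 (log2; exact permutation test, p = 0.1), 0.35 among the libraries with few duplicates and 0.46 between those with many. It was 0.29 at gaps of 2 to 10 Mb, 0.31 at 10 to 30 Mb, 0.36 at 30 to 60 Mb and 0.51 beyond 60 Mb.
Short B domains showed no such gain, with 1.68, 1.68 and 1.62 in the growing and 1.64 and 1.66 in the RIS libraries. The change of large less that of short B pairs was 0.41 (log2), with no overlap between conditions. Short B domains also had less negative A/B scores. In GC content 395 of 503 short B domains lay in the high range, against 135 of 404 large ones. Short pairs matched by GC content were not measured. Among pairs in which both scores were under -1 the change was 0.49 for large and 0.15 for short domains.

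Among pairs within the same GC group the gain was again ordered by GC content. For 657 pairs of low-GC B members mean contact went from 2.41, 2.54 and 2.47 (observed/expected) in the growing to 4.28 and 4.51 in the RIS libraries, and for 472 pairs of middle-GC members from 1.94, 2.00 and 1.904 to 2.67 and 2.79. For 494 pairs of high-GC members it went from 2.03, 2.05 and 1.92 to 2.18 and 2.31, and for 886 pairs of a low-GC with a high-GC member it fell from 1.57, 1.59 and 1.53 to 1.36 and 1.44. The low-GC members, which lost contact inside and with their flanks, therefore gained most with each other. Balancing gives all bins nearly the same total, so near losses and far gains of a bin are not independent. The values are also ratios to the mean contact at the same distance. A rise in some pairs therefore lowers the ratio of others, and an absolute loss between low-GC and high-GC members is not shown. For 1070 pairs of a low-GC with a middle-GC member the change was 0.58 (log2). For 947 pairs of a middle-GC with a high-GC member it was 0.10, less than the 0.17 of pairs of high-GC members. In no kind of pair did the conditions overlap.

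Pairs that involve A members differed by smaller amounts than all pairs of B members together. Their values are likewise ratios to the mean contact at the same distance, so an absolute loss is not shown. For 184 pairs of A members mean contact was 0.965, 0.940 and 0.950 (observed/expected) in the growing and 1.14 and 1.02 in the RIS libraries, a difference of 0.18 (log2; exact permutation test, p = 0.1), which was 0.26 among the libraries with few duplicates, 0.10 between those with many and 0.10 without RIS replicate 1. For 2001 pairs of an A with a B member it was 0.507, 0.505 and 0.539 in the growing and 0.479 and 0.464 in the RIS libraries, a difference of -0.13 (p = 0.1, exact), -0.08 among the libraries with few duplicates and -0.22 between those with many.

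**Figure D5:**
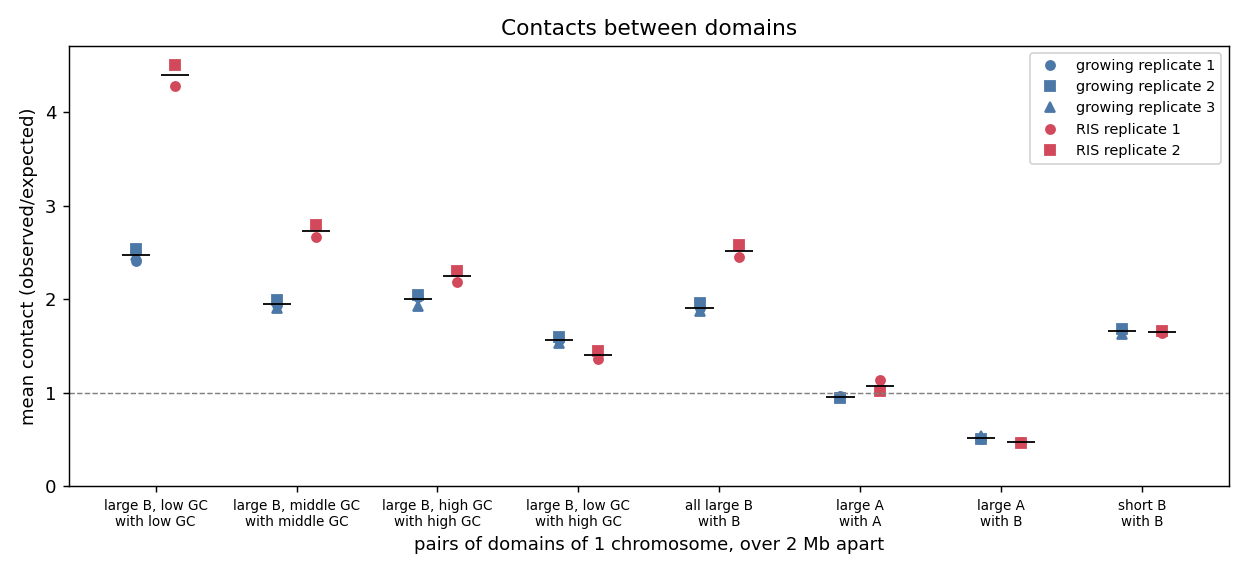
Mean contact (observed/expected, vertical) between domains of the same chromosome over 2 Mb apart, by kind of pair (horizontal), with 1 point per library and a line at the mean of each condition. Pairs of low-GC B members stand highest in RIS, at 4.28 and 4.51, and pairs of short B domains lie at the same level in both conditions.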

How the data were processed

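The authors aligned Hi-C reads to hg19 with HiC-Pro, and the deposited signal is ICE-balanced contact per pair of 40 kb bins in each library. Contacts before balancing were recovered with 1 factor per bin, and 100% of values came out whole within 0.05, or in proportion for large counts. Capture Hi-C was not analysed here. The members, gene lists and tests were chosen with earlier results of these data known. Compartments were the first component of observed/expected contacts, cut off at their 99th percentile, in bins of 120 kb, with the sign of gene density. It followed gene density more closely than the second in all 110 combinations of chromosome and library.

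Domains were compared with limma 3.58.1 (R 4.3.3), with the variance trend on the number of bin pairs, and single values by two-sided exact permutation of libraries. Border calling and limma were tried on simulated data, and the exact permutation was not. The simulated noise was independent between domains, so error rates under shifts shared by the domains of a library were not tested. Named domains were the 6 largest rises and falls called with no overlap between conditions, the 3 longest, and 2 on either side of 1.0 Mb. One of the rises is not reported here. Genes and bases came from GRCh37, whose chromosome lengths equal those of the files. Values of GC groups were added after the data were seen. Software was Python 3.11.15, numpy 2.4.6, scipy 1.17.1 and pandas 2.3.3.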

Additional observations from a re-analysis of the deposited data

How the results depend on the processing

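Of 308 members called, 248 to 287 were still called in the same direction when 1 library was left out, with 252 to 299 called in all, 106 to 120 as higher and 139 to 189 as lower. With the replicate block, which uses replicates 1 and 2 of both conditions, 230 were called, 90 higher and 140 lower, of which 227 were among the 308. The numbers mark no shared culture in the labels, so they were not read as pairs. The deviations of growing and RIS replicates correlated at 0.03 for number 1 and -0.13 for number 2. With 2 RIS libraries, correlations with RIS replicate 2 mirror those with RIS replicate 1, so these values cannot decide pairing. With a prominence of 0.2, which gave 603 members, 203 were called higher and 172 lower and the median change turned to 0.02, against 129, 179 and -0.02. The number called higher was 73 before balancing, 55 after centring and 82 with the sum of observed over expected contacts, which also called 269 lower. Over pairs 40 to 320 kb apart, an alternative chosen after seeing the data, 242 of the 308 were called in the same direction and 4 in the other. Members set by a single growing library, itself left out, gave 254 to 284 calls.

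With 1 library left out, the large against short difference lay between -0.11 and -0.06. Over pairs 40 to 320 kb apart that difference lay between -0.13 and -0.10. Contact with flanks then lay between -0.12 and -0.08, border depth between -0.07 and -0.05, and B minus A between -0.15 and -0.09. Contact between members lay between 0.36 and 0.43 for B with B and between 0.10 and 0.26 for A with A. For A with B it lay between -0.16 and -0.10. Contact inside members had no settled direction beyond 240 kb. At 240-400 kb it was 0.019 with a prominence of 0.2. At 440-800 kb it lay between -0.023 and 0.0076 with 1 library left out, turning without RIS replicate 1, and was 0.0097 with RIS borders and 0.016 with a prominence of 0.2. At 840 kb or more it lay between -0.064 and 0.027, turning without growing replicate 1 or RIS replicate 1, and was 0.0012 with RIS borders and 0.013 before balancing. The sum of observed over expected contacts turned the domains of NR2F2 (-0.018), NFIA (-0.0093), PCLO (-0.17) and LRFN5 (-0.075), and pairs 40 to 320 kb apart those of NR2F2 (-0.0072), NFIA (-0.044), OTX2 (-0.0057), PCLO (-0.22) and LRFN5 (-0.11). The cause was not tested. The depth was a median of 17511 to 32005 contacts per member, by library, and its effect on single members was not tested.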

Other observations

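Relative to the mean contact at the same distance, domains under 400 kb in A lost contact with each other while large B domains gained it. Pairs of large A domains gained 0.18 (log2). A rise in some pairs lowers the ratio of others, so an absolute loss is not shown. For 56020 pairs of short A domains on the same chromosome more than 2 Mb apart, mean contact was 1.35, 1.32 and 1.35 (observed/expected) in growing cells, whereas RIS cells had 1.24 and 1.13. The difference was -0.18 (log2), -0.11 among the libraries with few duplicates and -0.26 between those with many, with no overlap between conditions. For 36972 pairs of a short A with a short B domain it went from 0.734, 0.738 and 0.743 to 0.707 and 0.682.

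Over all members 37.1% fell and 26.7% rose, and over all domains 13.4% fell and 38.4% rose. On chromosome 4, 25 of 44 members fell and 11 rose, and on chromosome 13, 12 of 23 fell and 2 rose. On chromosome 16, 1 of 14 fell and 8 rose. These counts are given with no test.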
